A study of Mus musculus with 12 samples.

Results

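The 10 Notch pathway genes described here were followed in dermal papilla (DP) cells, the mesenchymal cells at the base of the hair follicle: the targets Hey1, Hey2, Heyl and Hes1, the receptors Notch1, Notch2, Notch3 and Notch4, and the ligands Jag1 and Dll1. They were picked by name, with earlier results of these data in view, and all 10 were present among the 15209 protein-coding genes tabulated at postnatal day 14 (P14) and the 15334 at P16. YFP-positive cells had been sorted by FACS from the skin of control and dMF1/2 mice, 3 libraries per genotype and day and 12 libraries in all. The dMF1/2 mice carried floxed alleles on both copies of Fgfr1 and of Fgfr2 together with Cor-cre, which drives Cre recombinase in the DP after birth, and the ROSA26 YFP reporter switched on by the same Cre marked the cells in every group. The controls are labelled wild type. The study's methods describe controls of these crosses as either Cor-cre/+; Fgfr1Flox/+; Fgfr2Flox/+ mice or Cre-negative mice with homozygous floxed alleles, and a control sorted for YFP must carry Cre, so control cells may lack 1 copy of each receptor gene. The study describes each library as the DP transcriptome of a separate mouse, so the p-values measure the spread between mice and their libraries together.

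Notch receptors are single-pass membrane proteins that are activated by Delta-like (Dll) and Jagged (Jag) ligands on neighbouring cells. Pulling by the ligand exposes the receptor to ADAM proteases and then to γ-secretase, and the freed intracellular domain enters the nucleus, where it binds the DNA-binding protein Rbpj and a Mastermind-like (Maml) coactivator. The best known targets of this complex are the Hes and Hey genes, which encode basic helix-loop-helix transcriptional repressors. In skin the pathway is known mainly for its part in the differentiation of the epidermis and of the hair shaft, while Notch3 and Heyl are also known from the mural cells of vessels and Notch4 and Dll4 from endothelium.

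Hey2 and Notch2 were the members whose control and dMF1/2 libraries did not overlap on either day, and the difference of Hey2 was the larger. Its promoter is shown because Rbpj recognises a short core sequence, GTGGGAA, that can be sought in it. The gene lies on the minus strand at chr10:30832359-30842801 (GRCm38). Below are 260 bases ending 10 bases past the start of transcription in RefSeq (chr10:30842774-30843033, GRCm38.p6), read 5′ to 3′ on the gene's strand, with matches to the core on either strand in capitals.
Hey2 promoter: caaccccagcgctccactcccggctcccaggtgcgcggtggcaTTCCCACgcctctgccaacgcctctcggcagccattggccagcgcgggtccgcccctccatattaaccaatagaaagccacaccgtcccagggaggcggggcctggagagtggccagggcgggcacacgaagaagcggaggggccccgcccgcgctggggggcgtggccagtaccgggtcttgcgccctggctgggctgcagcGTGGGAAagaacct
The 2 matches begin 207 and 4 bases before the RefSeq start, the first in the reverse orientation TTCCCAC. The gene model used in the deposited tables begins slightly upstream of the RefSeq one, so that the second match lies inside its first exon. Of 32544 distinct mouse promoter windows of 300 bases, which reach further past the start than the stretch shown, 2078 (6.39%) held the core at least once and 83 (0.255%) at least 2 times. G and C made up 70.4% of the stretch shown, against a median of 52.3% over the promoters. These shares are thus not those of promoters alike in composition. RefSeq promoters were at hand for 7 of the 10 genes, 8 sequences with the alternative start of Dll1, and only that of Hey2 held the core; those of Hey1, Heyl and Hes1 were not examined. A match describes the letters only and is not a measured binding site.

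The libraries held 19302358 to 29860750 recovered reads, and the lowest value of any of the 10 genes in any library was 25 reads (Notch4), so none was at the floor of detection. Levels are given as normalized reads, that is reads divided by the size factor of the library. Col1a1 took 7.06% of the reads of P14 control library 1 and 9.15% of P14 dMF1/2 library 1, against 13.1% to 17.7% in the other 10 libraries. Libraries with the same number in the 2 genotypes of a day deviated from their group means together, so differences within these pairs are given as well. The defining DP markers were present in every library, with Corin at 2736 to 42680 and Sox2 at 37.9 to 190 rescaled reads. Markers of other mesenchymal cells were present in every library too. Mean levels ran from 3573 upward for 8 dermal fibroblast markers, among them Dpt at 7261 to 13053. They ran from 230 to 8258 for 6 dermal sheath markers and from 102 to 28273 for 12 DP markers. The part of such cells in the values of the members was not tested. The sum of 12 DP markers was lowest in P16 control library 1, at 54569, against 83557 and 91286 in the other P16 control libraries and 91957 to 134676 in P16 dMF1/2 libraries. Since RNA was measured in bulk, fewer cells of a type and less RNA per cell cannot be told apart.

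In GRCm38, the other targets lie on 3 chromosomes, Hey1 at chr3:8663359-8667256, Heyl at chr4:123233556-123249875 and Hes1 at chr16:30064384-30067796. The receptor genes are Notch1 at chr2:26457903-26516663, Notch2 at chr3:98013527-98150361, and Notch3 and Notch4 at chr17:32120820-32166880 and chr17:34564268-34588503. The ligand genes are Jag1 at chr2:137081456-137116644 and Dll1 at chr17:15367354-15376872. Compared per kilobase of merged exon, the genes covered a wide range of levels. These lengths merge all annotated exons of a gene, and which transcripts were expressed was not measured. The order between genes therefore depends on the lengths used. Group means of normalized reads per kilobase were 566 to 814 for Hes1, 552 to 735 for Notch2, 371 to 450 for Jag1 and 297 to 378 for Notch3, which made these the abundant members. Notch1 followed with 95.8 to 129 and Hey1 with 74.1 to 95.8. Heyl ranged from 64.4 to 169, Hey2 from 33.2 to 175 and Dll1 from 26.7 to 327 between the groups, so that their places in the order changed with genotype and day. Notch4 was the lowest throughout, at 6.09 to 12.2. Hes1 and Notch2 exchanged places at the top: per kilobase, Hes1 stood at 814 ± 75.7 and Notch2 at 552 ± 22.2 (SD, n = 3) in P16 control libraries, and at 566 ± 42.9 and 735 ± 31.1 in P16 dMF1/2 libraries, without overlap in either, while their P14 libraries overlapped in both genotypes. Jag1 lay above Notch3 without overlap in the dMF1/2 libraries of both days, and the 2 overlapped in the control libraries of both.

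The genotype differences of the 10 genes are described here by their values, since the genes had been chosen with these differences known. The limma calls given further below for these differences are descriptions for the same reason. At P14, Hey2 stood at 321, 297 and 236 normalized reads in the control libraries and at 941, 740 and 730 in the dMF1/2 libraries. No mutant library came near the control range, and the means were 285 ± 44.0 and 804 ± 119 (SD, n = 3), a log2 difference of 1.50 (SE 0.16). At P16, Hey2 was at 106, 151 and 201 in control and at 360, 691 and 855 in dMF1/2 libraries. The groups again did not overlap, with means of 153 ± 47.6 and 635 ± 252 and a log2 difference of 2.01 (SE 0.34). Within the same-numbered pairs the log2 differences came to 1.55, 1.32 and 1.62 for the P14 libraries and to 1.76, 2.18 and 2.09 for those of P16. Hey2 was thus higher in the dMF1/2 library of all 6 pairs.

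**Figure D1:**
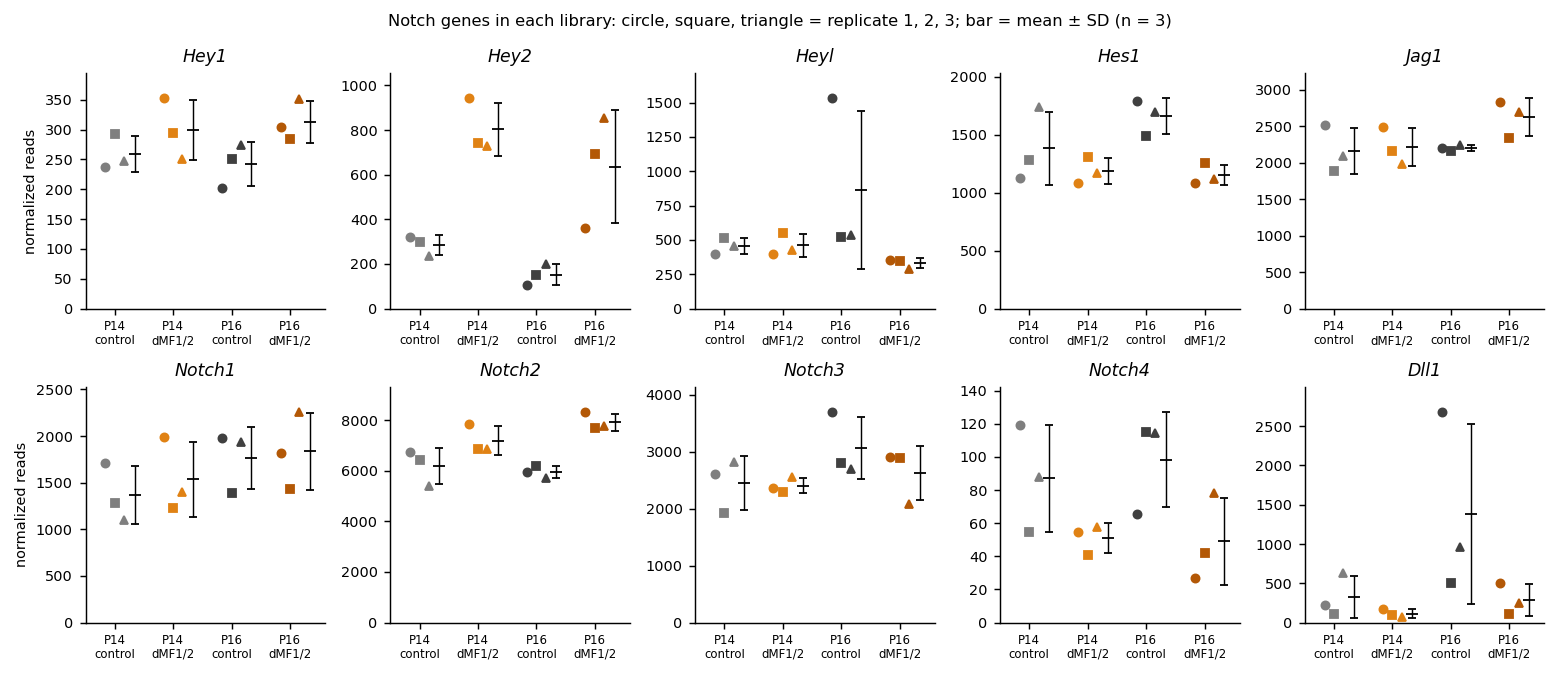
Normalized reads (y axis, linear from 0) of the 10 Notch genes in each of the 12 libraries by group, where circles, squares and triangles are replicates 1, 2 and 3 and bars are mean ± SD (n = 3). Hey2 separates the genotypes on both days, from 285 to 804 on average at P14 and from 153 to 635 at P16, whereas 1 library, P16 control 1, stands far above the rest for Heyl (1530) and Dll1 (2676).

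The differences of the other targets were smaller or went the other way. Hey1, a close relative of Hey2, was at 238, 293 and 247 in P14 control and 352, 294 and 251 in P14 dMF1/2 libraries, which overlapped, with a log2 difference of 0.20 (SE 0.16). That difference was 0.08 without dMF1/2 library 1 and 0.32 without dMF1/2 library 3. At P16 Hey1 was at 202, 250 and 274 in control and 304, 284 and 351 in dMF1/2 libraries, a smaller separation in the direction of Hey2 with a log2 difference of 0.38 (SE 0.14). Heyl, the third Hey gene, stood at 395, 515 and 454 in P14 control and 398, 551 and 430 in P14 dMF1/2 libraries, and the log2 difference was 0.01 (SE 0.16). The P14 genotypes were thus not separated for Heyl. At P16, Heyl was at 1530, 524 and 534 in control and at 356, 345 and 287 in dMF1/2 libraries. Every mutant library lay below every control library, and the log2 difference was -1.20 (SE 0.37), or -0.69 without P16 control library 1, which held 2.92 times the Heyl reads of the lowest library of its group. Hes1, a Hes gene that many tissues switch on upon Notch activation, was at 1130, 1278 and 1737 in P14 control and 1083, 1309 and 1169 in P14 dMF1/2 libraries. These overlapped, with a log2 difference of -0.20 (SE 0.17), or -0.02 without P14 control library 3. At P16 it was at 1790, 1489 and 1698 in control and at 1088, 1252 and 1119 in dMF1/2 libraries, which did not overlap, with means of 1659 ± 154 and 1153 ± 87.4 and a log2 difference of -0.52 (SE 0.10). At P16, then, the 4 targets were not displaced one way: Hey1 and Hey2 lay higher and Heyl and Hes1 lower in dMF1/2 libraries.

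Among the receptors, Notch2 was the one whose genotypes did not overlap on either day. It was at 6730, 6439 and 5392 in P14 control and at 7867, 6852 and 6869 in P14 dMF1/2 libraries, a log2 difference of 0.22 (SE 0.12), or 0.13 without P14 control library 3. At P16 it was at 5962, 6191 and 5711 in control and 8308, 7690 and 7772 in dMF1/2 libraries, and the log2 difference was 0.41 (SE 0.08). All 6 pairs were higher in dMF1/2, and the lowest pair difference was 0.09 at P14 and 0.31 at P16. Notch4, a receptor best known from endothelium, was at 119, 54.7 and 87.8 in P14 control and 54.6, 40.5 and 57.8 in P14 dMF1/2 libraries, and at 65.5, 115 and 115 in P16 control and 27.0, 42.0 and 78.3 in P16 dMF1/2 libraries. Its groups overlapped on both days, while all 6 pairs were lower in dMF1/2, with log2 differences of -0.71 (SE 0.31) at P14 and -1.07 (SE 0.39) at P16. The P14 difference was -0.45 without control library 1, and with any 1 library left out the P16 difference ran from -1.47 to -0.72, the latter without dMF1/2 library 1. The sum of 12 endothelial markers was 1495 to 2754 rescaled reads in P16 control and 1462 to 1648 in P16 dMF1/2 libraries, with a median log2 difference of -0.77 over the 12. The difference was below 0 for 11 of the 12, among them Pecam1 at 79.2 to 323 and 58.1 to 122, and above 0 for Kdr, at 90.4 to 260 and 278 to 501. In limma 0 of the 12 passed (5 at an unadjusted p under 0.05, beside 19.0% of all genes), in edgeR 0 and in DESeq2 4. At P14 the differences of the 10 endothelial markers tested were above 0 for 5 and below 0 for 5, with a median of -0.03. The part of endothelial RNA in the Notch4 values was not tested. Notch1 and Notch3 were not separated. Notch1 ranged from 1104 to 1709 in P14 control and 1225 to 1988 in P14 dMF1/2 libraries, and from 1386 to 1975 and 1429 to 2253 at P16. Notch3 ranged from 1914 to 2808 and 2287 to 2553 at P14, and from 2698 to 3687 and 2082 to 2902 at P16. Their log2 differences were 0.17 (SE 0.22) and 0.05 (SE 0.19) for Notch1, and -0.01 (SE 0.15) and -0.22 (SE 0.17) for Notch3, at P14 and P16 in turn. With any 1 library left out, the P16 difference of Notch3 ran from -0.31 to -0.07.

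The 2 ligands behaved differently from each other. Jag1, an abundant and steady transcript, was at 2509, 1884 and 2093 in P14 control and 2490, 2165 and 1980 in P14 dMF1/2 libraries, with a log2 difference of 0.04 (SE 0.14). At P16 it was at 2202, 2153 and 2247 in control and 2837, 2340 and 2693 in dMF1/2 libraries, a non-overlapping log2 difference of 0.25 (SE 0.09). Dll1 was the most variable member, at 228, 115 and 630 in P14 control, 172, 97.1 and 68.9 in P14 dMF1/2, 2676, 501 and 966 in P16 control and 507, 105 and 243 in P16 dMF1/2 libraries. Its groups overlapped on both days, at P16 only because dMF1/2 library 1 (507) slightly exceeded control library 2 (501). The log2 differences were -1.27 (SE 0.61) at P14 and -2.21 (SE 0.68) at P16. The P14 value was -0.62 without control library 3. The P16 value was -1.56 without control library 1, -1.63 without dMF1/2 library 2, and -2.77 and -2.76 without control library 2 and dMF1/2 library 1. Within the P16 pairs they were -2.40, -2.25 and -1.98, a narrow range beside the spread between control libraries, and within the P14 pairs -0.40, -0.24 and -3.18, so that the P14 value rested on pair 3.

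**Figure D2:**
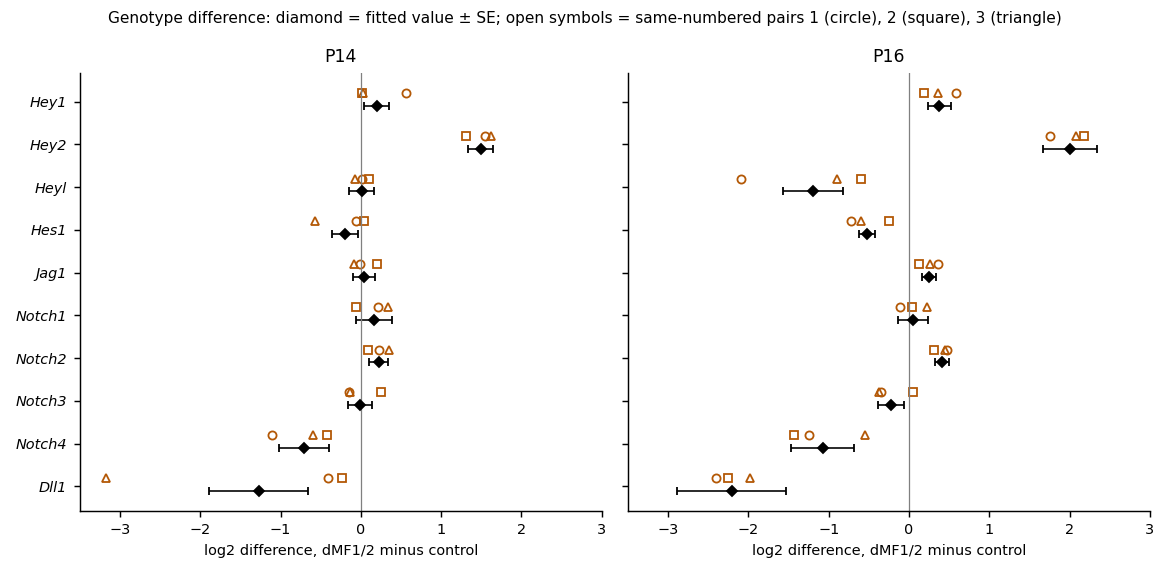
Log2 difference of dMF1/2 minus control (x axis) for each Notch gene at P14 and P16, where diamonds are fitted values ± SE from 3 libraries a group and open symbols are the 3 same-numbered pairs. The 3 pairs of Dll1 lie between -2.40 and -1.98 at P16 but between -3.18 and -0.24 at P14, and those of Hey2 lie between 1.32 and 2.18 on both days.

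At an adjusted p under 0.05 in limma, 1 of the 10 genes (Hey2, higher) passed at P14, where 0.0525% of the 13334 genes tested passed. At P16, 3 of 10 passed, Hey2 and Notch2 higher and Hes1 lower, where 4.32% of 13457 genes did. In a limma fit of all 12 libraries together 2 of 10 passed at P16 (4.44% of all genes), and Hes1 did not (limma's adjusted p = 0.0625). With the replicate number as a block, 1 of 10 passed at P14 (1.68% of all genes) and 6 of 10 at P16 (10.4%), the latter with Heyl, Notch4 and Dll1 lower beside the first 3. Groups that did not overlap were counted for 2 of 10 genes at P14 (12.7% of all genes) and 6 of 10 at P16 (24.5%). The P14 count in limma was 0 with any 1 of the 6 libraries left out, where 0% to 0.135% of all genes passed. The P16 count was 2 without control library 1 (Hey2 and Heyl, beside 2.96% of all genes) or 2 (Hey2 and Hes1, beside 5.08%). It was 1 without control library 3 (Hey2, beside 1.37%), dMF1/2 library 1 (Hey2, beside 3%) or dMF1/2 library 2 (Hes1, beside 2.27%). Without dMF1/2 library 3 it was 0 (beside 1.11%). These counts describe how the genes were chosen and are not evidence about the pathway. Of the targeted genes, Fgfr1 had log2 differences of -0.40 at P14 and -0.50 at P16 (limma's adjusted p = 0.501 and 0.130, the latter 0.0109 with the block), and Fgfr2 had -0.11 and -0.01. These reads were counted over the whole of each gene and none within the floxed exons alone, so they do not show the deletion.

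The change between P14 and P16 was tested in one limma model of the 12 libraries after joint rescaling, which moved no library by more than 2.23%. These comparisons use the same control and dMF1/2 libraries as the genotype differences above and are not independent of them. No member passed the test in control libraries (0 of 10, against 14.5% of 13415 genes; 2 of 10 at an unadjusted p under 0.05, against 31.9% of all genes), and the values nearest to passing were those of Hey2 and Dll1. For Hey2 the 3 control libraries of P16 (106 to 201 normalized reads) lay below the 3 of P14 (236 to 321), with a log2 change of -0.97 (SE 0.30, limma's adjusted p = 0.0510), and 18.4% of all genes had groups apart in this direction. Its adjusted p was 0.0165 in DESeq2, 0.0460 after TMM scaling, 0.0468 after upper-quartile scaling, 0.0490 among genes with at least 10 reads in every library and 0.0486 without P16 control library 3. On the other side of the threshold it was 0.0531 in edgeR, 0.0584 in a limma fit of the 6 control libraries, 0.131 with the block and 0.180 without P16 control library 1, where the log2 change was -0.73, and it was 0.0510 to 0.150 in limma under the remaining alternatives. Dll1 had the largest change of the 10, at 2.05 (SE 0.74, limma's adjusted p = 0.0839), from 115 to 630 normalized reads at P14 to 501 to 2676 at P16. The 2 ranges overlapped in P14 control library 3, without which the change was 2.70 (limma's adjusted p = 0.0365), and without P16 control library 1 it was 1.41 (limma's adjusted p = 0.276). For Heyl the log2 change was 0.70 (SE 0.33, limma's adjusted p = 0.171), and 0.19 without P16 control library 1. That of Hes1 was 0.24 (SE 0.14, limma's adjusted p = 0.270), with 0.42 without P14 control library 3 (limma's adjusted p = 0.0380) and 0.11 without P14 control library 1 (limma's adjusted p = 0.678). The log2 changes of the other 6 genes ran from -0.14 for Hey1 to 0.34 for Notch1, with Notch3 at 0.29, Notch4 at 0.16, Notch2 at -0.09 and Jag1 at -0.00, and with adjusted p-values of 0.274 to 0.983 in limma.

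In dMF1/2 libraries 0 of 10 members passed, against 5.80% of all genes, and 0 of 10 had an unadjusted p under 0.05, against 22.8%. DESeq2 and edgeR on the recovered reads likewise called 0 of 10, against 1341 and 768 of the 13415 genes. Heyl had the one change without overlap, from 398 to 551 normalized reads at P14 to 287 to 356 at P16, with a log2 change of -0.51 (SE 0.33, limma's adjusted p = 0.392) where 14.4% of all genes had groups apart in this direction. The log2 change was -0.46 for Hey2 (SE 0.30, limma's adjusted p = 0.397) and 1.11 for Dll1 (SE 0.74, limma's adjusted p = 0.412), and leaving out 1 library moved both values. Without P16 dMF1/2 library 1 they were -0.10 and 0.56, without P16 dMF1/2 library 3 Hey2 was at -0.72, and without P16 dMF1/2 library 2 Dll1 was at 1.69. The difference between the genotypes in this change, the interaction, was called for 0 of 10 members and for 0% of 13415 genes, with 648 at an unadjusted p under 0.05. Over all genes 7 were called by DESeq2 and 0 by edgeR, and no member by either. Heyl was the 1 member at an unadjusted p under 0.05 in this model. Its interaction was -1.21 (SE 0.47, limma's adjusted p = 1.0), and -0.70 without P16 control library 1. The interaction was 0.51 for Hey2 (95% interval -0.42 to 1.44) and -0.94 for Dll1 (-3.24 to 1.36). With 1 library left out it ran from 0.25 (without P16 dMF1/2 library 3) to 0.88 (without P16 dMF1/2 library 1) for Hey2, and from -1.59 (without P14 control library 3) to -0.29 (without P16 control library 1) for Dll1. With the replicate number within a day as a block, the intervals were 0.16 to 0.86 for Hey2 (limma's adjusted p = 0.260), -1.96 to -0.47 for Heyl (limma's adjusted p = 0.238) and -2.43 to 0.55 for Dll1 (limma's adjusted p = 0.685). In that fit Hey2 and Heyl were the 2 members at an unadjusted p under 0.05, as were 1467 of the 13415 genes, and 0 genes were called.

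**Figure D3:**
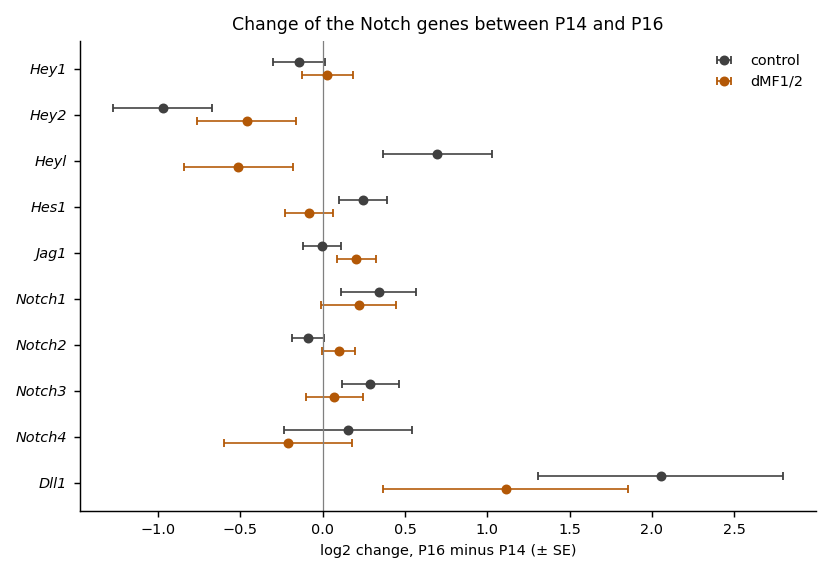
Log2 change from P14 to P16 (x axis, ± SE from the model of 12 libraries) of each Notch gene in control and dMF1/2 libraries. Hey2 (-0.97) and Dll1 (2.05) have the largest changes in control, Heyl lies at 0.70 in control and -0.51 in dMF1/2, and none passes an adjusted p of 0.05 in this limma model.

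P16 control library 1 was the highest library of all 12 for both Dll1 and Heyl and the lowest for Hey2. It also had the lowest sum of the 12 DP markers and the highest sum of 10 immediate early and heat shock genes, a list of genes that respond to tissue dissociation, at 460384 rescaled reads against 323541 and 364181 in the other P16 controls and 290253 to 312854 in P16 dMF1/2 libraries. Between the control days, 4 of 12 DP markers were lower at P16 (Corin, Alpl, Lef1 and Fgf7) and 4 of 10 of the stress genes higher (Dnajb1, Atf3, Hspa1a and Hspa1b), where 1111 of 13415 genes were lower and 840 higher. Of the 12 endothelial markers, 3 were higher at P16 in control (Emcn, Esam and Vwf) and 1 was lower (Tek), with a median log2 change of 1.31 over the 12, and their sum was 1341 to 1995 rescaled reads at P14 and 1495 to 2754 at P16. In dMF1/2 libraries the median log2 change of the 12 was 0.43. Between the genotypes at P16, 1 DP marker was higher in dMF1/2 (Alpl), 1 was lower (Crabp1) and 1 stress gene was lower (Atf3) in limma. The median log2 difference of the 12 DP markers was 0.67, with 7 above 0 and 5 below. At an unadjusted p under 0.05 there were 9 of 12, beside 19.0% of all genes. DESeq2 called 6 of the 12 (8.35% of all genes) and edgeR 2 (4.48%). The sum of 8 mural cell markers was 33571 to 34157 in P16 control and 17996 to 23265 in P16 dMF1/2 libraries, where 1 of 7 tested was lower. This was Cspg4, at 9408 to 15512 in control and 2191 to 3873 in dMF1/2 libraries, while the median log2 difference over the 7 was -0.25 and that of Kcnj8 was 0.04. At P14 the mural sums were 18616 to 37387 and 15265 to 27676. Keratinocyte markers were low throughout, with sums of 329 to 1047. The part of these differences in the values of Dll1, Heyl, Notch3, Notch4 and the other members was not tested.

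**Figure D4:**
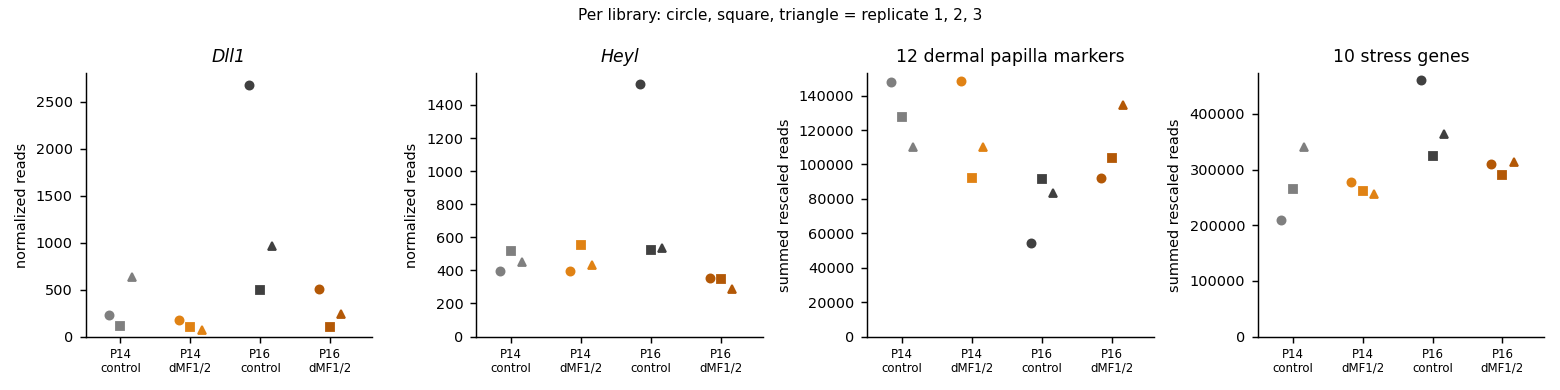
Normalized reads of Dll1 and Heyl and summed rescaled reads of 12 DP markers and 10 stress genes (y axes, linear from 0) in each library, with circles, squares and triangles for replicates 1, 2 and 3. P16 control library 1 is highest for Dll1 (2676), Heyl (1530) and the stress genes (460384) and lowest for the DP markers (54569).

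The other genes of the pathway were taken as 68 genes in 8 lists by role, 60 of which were abundant enough to test. Not tested were the ligands Dll3 and Dlk2, the glycosyltransferase Mfng, and Hes2, Hes3, Hes5, Hes7 and Helt. At P14, 0 of 60 differed between the genotypes in limma (9 at an unadjusted p under 0.05, beside 976 of 13334 genes), DESeq2 called Jag2 and Lfng lower (2 of 60, beside 1.55% of all genes) and edgeR called 0. With the replicate block, 1 of 60 passed, Jag2, a ligand of the Jagged family, at 73.6, 33.2 and 91.7 normalized reads in control and 20.2, 11.7 and 25.5 in dMF1/2 libraries. Its groups did not overlap, and the log2 difference was -1.68 (SE 0.45, limma's adjusted p = 0.373; 0.0187 with the block).

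At P16, 1 of 60 pathway genes differed between the genotypes, or 1.67% against 4.32% of all genes, with a median log2 difference of -0.02 beside -0.00 over all genes. The 1 gene was Maml2, a Mastermind-like coactivator of the Notch complex. It was at 745, 822 and 759 normalized reads in control and at 1166, 1184 and 1322 in dMF1/2 libraries. All mutant libraries lay above all controls, with a log2 difference of 0.66 (SE 0.09, limma's adjusted p = 0.00866), and the adjusted p stayed at or below 0.0461 whichever library was left out. At an unadjusted p under 0.05 there were 15 of 60, beside 2559 of 13457 genes. With the replicate block 8 of 60 passed (10.4% of all genes), among them Rfng and Pofut1, which modify the sugars of the receptor, at 0.38 (limma's adjusted p = 0.0478 with the block) and 0.27 (limma's adjusted p = 0.0432 with the block). The 5 that were lower with the block were Lfng, Dll4, Bhlhe40, Maml3 and Adam10.

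Lfng encodes Lunatic fringe, a glycosyltransferase that changes which ligands a Notch receptor answers to. It stood at 203, 212 and 267 in P16 control and at 139, 30.8 and 70.9 in P16 dMF1/2 libraries. The groups did not overlap, with a log2 difference of -1.73 (SE 0.46, limma's adjusted p = 0.0809; 0.0346 with the block). Dll4, a Delta-like ligand best known from endothelial tip cells, was at 84.7, 186 and 285 in control and 62.7, 62.5 and 115 in dMF1/2 libraries, which overlapped, with a log2 difference of -1.09 (SE 0.43, limma's adjusted p = 0.215; 0.0301 with the block). Jag2 did not pass in either limma fit at P16, at 51.5, 148 and 201 in control and 45.4, 20.5 and 32.8 in dMF1/2 libraries and a log2 difference of -1.85 (SE 0.50, limma's adjusted p = 0.0834), while DESeq2 called it (adjusted p = 0.000365). The differences were -0.81 for Bhlhe40, a repressor related to the Hes proteins, -0.71 for Maml3 and -0.31 for Adam10, the protease of the first ligand-induced cut, with limma's adjusted p = 0.111, 0.210 and 0.0646 without the block. Rbpj itself was at a log2 difference of -0.07 (SE 0.07, limma's adjusted p = 0.680). DESeq2 called 6 of the 60, beside 8.35% of all genes: Maml2 higher, and Jag2, Lfng, Bhlhe40, Dll4 and Adam10 lower.

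**Figure D5:**
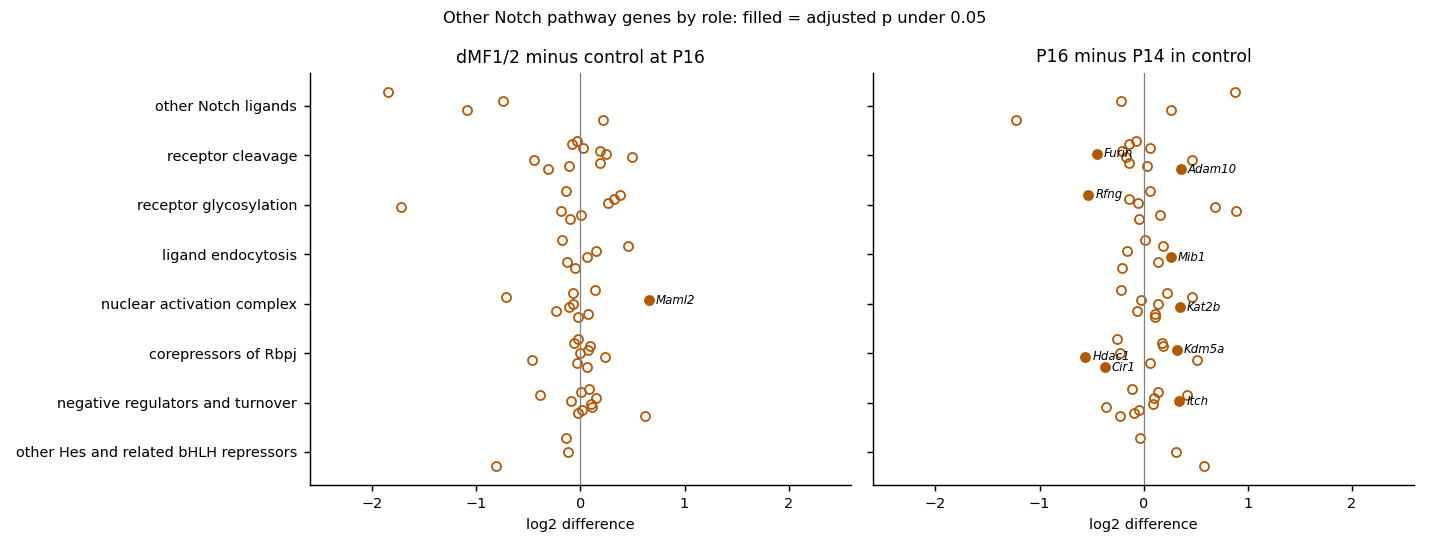
Log2 differences (x axis) of the other Notch pathway genes tested, in rows by role, for dMF1/2 minus control at P16 and for P16 minus P14 in control, with filled points at an adjusted p under 0.05 in limma. Maml2 (0.66) is the 1 gene past the threshold between the genotypes, and the genes that pass between the days run from -0.56 (Hdac1) to 0.36 (Adam10). Of the 60 genes tested, 1 is not shown.

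Between the days in control, 10 of 60 pathway genes changed in limma (16.7% against 14.5% of all genes), 5 in each direction, with a median log2 change of 0.04 beside 0.01 over all genes. Rfng fell most clearly, from 418, 415 and 394 normalized reads at P14 to 289, 287 and 296 at P16, by 0.53 on the log2 scale (SE 0.08, adjusted p = 0.00375). Adam10 rose by 0.36 (SE 0.07, adjusted p = 0.0118), from 1762 to 2025 reads at P14 to 2426 to 2593 at P16. Both passed whichever control library was left out. The other genes that rose were Kat2b (0.35), an acetyltransferase, Itch (0.34), a ubiquitin ligase that acts on Notch, the demethylase Kdm5a (0.32) and Mib1 (0.26), the ubiquitin ligase that lets ligands be taken up. Among those that fell were Furin (-0.45), the protease that matures the receptor, and Hdac1 (-0.56) and Cir1 (-0.38), both from the list of Rbpj corepressors, to which Kdm5a, which rose, also belongs. The count was 3 without P14 control library 1 (5.83% of all genes) or P16 control library 1 (5.17%). It was 6 without P14 control library 2 (7.78%) and 4 without P16 control library 3 (7.25%). A fit of the 6 control libraries alone called 1 (5.87%). In dMF1/2 libraries 4 of 60 changed (6.67% against 5.80%). Kdm5a rose by 0.31, and Cir1 (-0.58) and Dner (-0.99), a ligand known from neurons, fell. Only Cir1 passed whichever dMF1/2 library was left out. The count was 1 without P14 dMF1/2 library 2 or 3 (2.55% and 2.14% of all genes). It was also 1 without P16 dMF1/2 library 1 or 3 (1.92% and 2.61%), and 2 without P16 dMF1/2 library 2 (4.75%). No pathway gene had an interaction past the threshold (0 of 60 in limma, 4 at an unadjusted p under 0.05).

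Likeness of pattern was measured as Pearson's r of log2 rescaled reads over the 12 libraries, among 10238 genes with a mean of at least 100. These libraries share groups and depth, so the values are descriptions. Closest to Hey2 were Lrrn2 (r = 0.982), Snap91 (0.975) and Cdk5rap2 (0.974). When group means were removed, r was 0.904, 0.861 and 0.823. Closest to Heyl were Gcc1 (0.952), Ywhah (0.912) and Tmem41a (0.884). Closest to Hes1 were Nap1l1 (0.965), Sept9 (0.957) and Lmna (0.945), and closest to Hey1 were Dlc1 (0.923), Fut10 (0.916) and Rassf5 (0.899). Among the members, the steepest opposition over the 12 libraries was that of Hes1 and Notch2 (r = -0.93, and -0.89 with group means removed). Hey2 was opposed to Dll1 (r = -0.82, and -0.52 with group means removed), and Hey1 and Hey2 varied together (r = 0.76, and 0.58 with group means removed).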

How the data were processed

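DP cells had been sorted for YFP from control and dMF1/2 mice, and ribosome-depleted RNA was sequenced. Per the labels and methods, the authors trimmed reads with Trimmomatic, mapped them to mm10 (GRCm38) with TopHat2, counted them per gene with HTSeq and normalized them with DESeq2. The signal values the authors deposited are reads divided by size factors, in 1 table per day, beside columns of the authors' own comparisons (mean, fold change, error, test score and p-values), which were not used. Whole reads were recovered from 100% of values (within 0.01 reads).

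Genotypes were compared within a day by limma 3.58.1 in R 4.3.3 (trend) on log2(normalized reads + 1) of genes with a mean of at least 10. Days and the interaction were compared in a model of 4 groups on reads of 14986 shared genes rescaled by median of ratios. A fold change on this scale understates that of low genes. The Benjamini-Hochberg threshold was 0.05, and limma was tested on simulated data. Same-numbered libraries correlated in their deviations within a day (0.573, 0.378 and 0.288 at P14; 0.266, 0.283 and 0.319 at P16), so the number was tried as a block there. As count tests, edgeR 4.0.16 and DESeq2 1.42.0 were run on recovered reads and called 7 and 207 genes at P14 and 603 and 1123 at P16.

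The members and lists were chosen with earlier results of these data known. Named are the 10 members, Fgfr1 and Fgfr2, the pathway genes past the threshold (up to 10 per comparison), and the 3 genes most like each Hey and Hes1. Genes past the threshold only with the block or in DESeq2, Jag2, Rbpj and single markers were named after their values were seen. Coordinates are those of the tables, exon lengths come from GENCODE M21 (GRCm38) and promoters from RefSeq (GRCm38.p6). Alternatives were other pseudocounts (0.1 and 10), filters, scalings, tools and fits, the block, and each library left out. Of the pathway genes tested, 1 is included in the counts but is not reported here by name.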

Additional observations from a re-analysis of the deposited data

How the results depend on the processing

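With 3 libraries a group, single libraries decide many calls, and among the 10 members Notch4 had the fewest reads. With any 1 library left out, the number of members called ranged from 0 to 0 at P14 (0% to 0.135% of all genes). It ranged from 0 to 2 at P16 (1.11% to 5.08%), and from 0 to 2 for the days in control (5.17% to 14.5%). The number was 0 at P14 with upper-quartile scaling (0.045% of all genes) or the joint fit (0.082%). For the days in control it was 1 with at least 10 reads in every library (15.7%), DESeq2 (19.2%), TMM (15%) or upper-quartile scaling (14.9%). The causes were not tested.

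Of the 60 other pathway genes, DESeq2 called 2 at P14 (1.55% of all genes), 6 at P16 (8.35%) and 9 for the days in dMF1/2 (10%). The joint fit called 3 at P16 (4.44%). For the days, the fit of the 6 libraries of a genotype called 1 in control (5.87%) and 1 in dMF1/2 (2.47%). With any 1 library left out, the number of pathway genes ranged from 0 to 0 at P14 (0% to 0.135% of all genes) and from 1 to 3 at P16 (1.11% to 5.08%). It ranged from 3 to 11 for the days in control (5.17% to 14.5%) and from 1 to 4 for the days in dMF1/2 (1.92% to 5.05%).

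With the replicate block, the members called were 6 at P16, and the pathway genes called were 1 at P14 and 8 at P16. The block called 1.68% of all genes at P14 and 10.4% at P16. Across the days the libraries share only a number (correlations of -0.0545, -0.0621 and -0.130 in control and 0.0292, 0.208 and -0.162 in dMF1/2). There the block gave 0 pathway genes in each genotype, where 0.134% (control) and 0.689% (dMF1/2) of all genes passed. The block changed no other count of members or pathway genes by over 1.5 times.

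With a library left out, the sign of some uncalled values turned. The log2 change in control ranged from -0.14 to 0.42 for Notch4 and from -0.098 to 0.11 for Jag1. In dMF1/2 it ranged from -0.092 to 0.15 for Hey1, from -0.011 to 0.23 for Notch3 and from -0.61 to 0.14 for Notch4. The interaction of Notch1 ranged from -0.30 to 0.081. The genotype difference at P14 ranged from -0.13 to 0.11 for Heyl, from -0.058 to 0.15 for Jag1, from -0.035 to 0.34 for Notch1 and from -0.17 to 0.10 for Notch3, and that of Notch1 at P16 from -0.12 to 0.22. On deviations from the group means, r with Hey2 was 0.861 for Snap91 and 0.823 for Cdk5rap2. Of 320 genotype values of members under all alternatives, 12 changed sign, 21 lost a call, 4 gained one and 283 did none of these. Of 770 values for the days, the interaction and the named pathway genes, 11 changed sign, 74 lost a call, 7 gained one and 678 did none of these.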
